A study of Rattus norvegicus with 10 samples.

Results

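Enzymes that detoxify peroxides and superoxide, keep thiols reduced and conjugate glutathione were described in the brain of rats that had briefly breathed an aroma compound. The set held every gene that a single-gene probe set of the array named with a symbol starting with Gpx, Prdx, Txn, Gst, Gcl or Sod, together with Hmox1, Nqo1, Cat, Srxn1 and Slc7a11. It came to 59 of 14217 named genes, read by 68 of 31042 probe sets. The rule reads gene symbols only, but it was chosen with earlier results of these data known. All 59 genes were measured on all arrays and no filter on low values was applied. Prdx1 is not among them because its probe set also names Prdx1l1, and Gsta2 and Gsta5 share a probe set. The probe set with the highest mean stood for a gene.

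Each of 10 Affymetrix arrays held total RNA of the right brain of 1 rat, and all rats were male, of the Wistar strain and 7 weeks old. The control rats (n = 5) inhaled vapor of distilled water for 5 min, and the DMHF rats (n = 5) inhaled for the same time vapor of DMHF, a dimethyl hydroxy furanone with a caramel and strawberry odor. Air was pumped over 5 mL of either liquid, the rats were killed after a further 10 min, and the exposure preceded the dark period. Both groups share strain, sex, age and exposure device, so the design asks which transcripts of the brain differ within minutes of the odor. RNA of all cell types on that side of the brain was pooled, so fewer cells of a type and less RNA per cell cannot be told apart.

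Cells remove hydrogen peroxide and lipid peroxides through glutathione peroxidases, which oxidise the tripeptide glutathione, and through peroxiredoxins, which draw electrons from thioredoxin. Glutathione S-transferases couple glutathione to reactive compounds, among them some odorants. In brain, astrocytes hold much of the glutathione and supply neurons with its precursors, and the transcription factor NRF2 (gene Nfe2l2) drives many of these genes when reactive compounds modify its inhibitor KEAP1. Such induction is usually followed over hours rather than minutes.

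The deposited values lay between 5.25 and 14.22, were taken as log2 expression, and differed between arrays by very little: the median SD over the 10 rats was 1.82 millionths of a log2 unit over all genes and 1.32 over the 59 genes. No source used here states which step left the differences this small. Differences are therefore given in millionths of a log2 unit (called millionths below), are not fold changes of RNA, and are set beside a gene's own pooled SD within groups. A rat's value is given as its distance from the mean of the control rats, in the order of replicates 1 to 5. The deposited digits allow steps of 0.001 millionths for values under 10 and 0.01 millionths above. Markers of brain cells read high on these arrays (neuronal genes 9.06 to 13.34, oligodendrocyte genes 10.14 to 13.79) and 7 liver genes low (6.12 to 7.17), where the array median was 7.24. Levels of different probe sets are not strictly comparable. The labels call the rats biological replicates.

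None of the 59 genes passed the test for a difference between DMHF and control rats. By limma over all 31042 probe sets, 0 genes of the set and 0 probe sets in all (0% of those tested) had a Benjamini-Hochberg adjusted p under 0.05, with 0.698 as the lowest. Without adjustment limma listed Gpx6 and Hmox1 as higher and Txndc17 as lower at p under 0.05, against 2.98% of all genes higher and 1.83% lower, and 1700 probe sets in all. Of the 59 genes, 36 had a positive difference and 23 a negative one (61.0% positive), where 53.0% of all genes were positive. The median difference was 0.13 within-group SD over the 59 genes and 0.05 over all 14217 genes. Of the 59 genes 52 differed by less than 1 SD, and of all 14217 genes 12010 did. With DMHF replicate 1 left out the share of positive differences was 45.8% in the set and 50.4% over all genes. Without DMHF replicate 3 the shares were 66.1% and 55.2%. An exact two-sided permutation test of group means, which uses only a gene's own spread, gave a p under 0.05 for 4 of the 59 genes and for 4.82% of all genes, and 0 genes passed after adjustment over all genes (smallest adjusted p = 0.888). The smallest p this test can give with 5 against 5 rats is 0.00794.

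**Figure D1:**
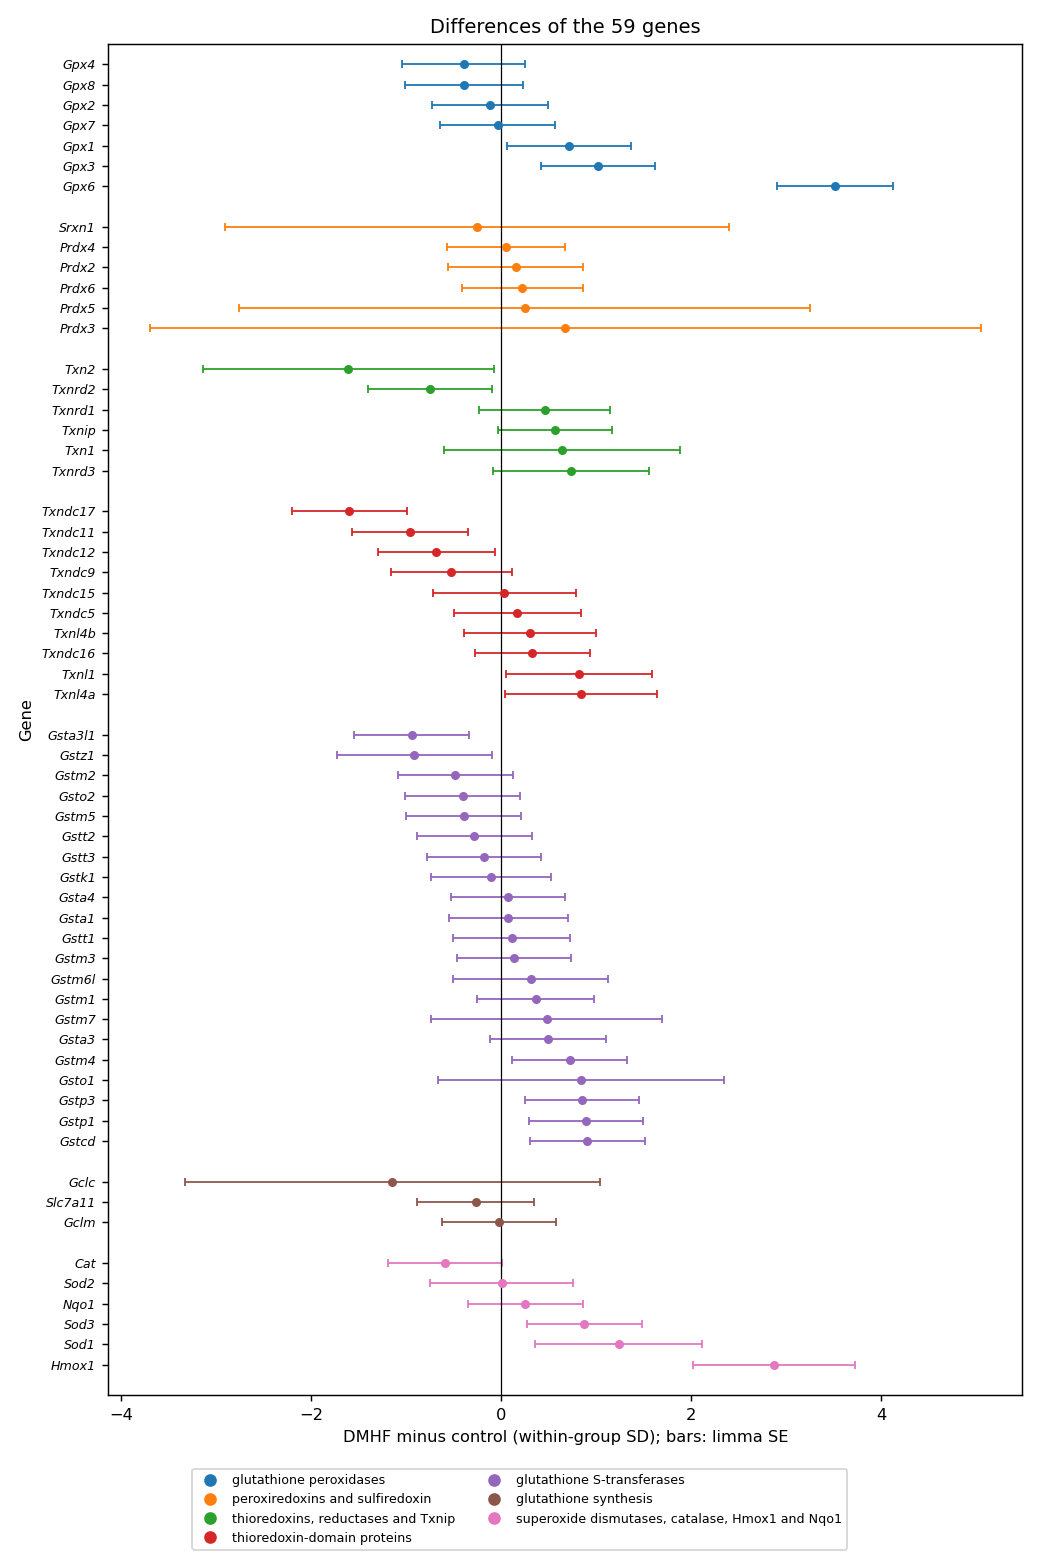
Difference between DMHF and control rats (x axis, in units of the gene's within-group SD) for the 59 genes (y axis), coloured by role; points are differences of group means (n = 5 each) and bars are limma SEs. Gpx6 at 3.51 and Hmox1 at 2.87 lie furthest to the right, and 52 genes lie within 1 SD of 0.

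Glutathione peroxidases reduce hydrogen peroxide and lipid hydroperoxides, some of them, though not all, with a selenocysteine in the active site. Gpx6 had the largest difference of the 7 measured members in SD units and the smallest p of the 59 genes. Gpx6 encodes a secreted form that was first described in rat olfactory mucosa. Its control rats stood at -3.68, 2.14, 0.898, 0.697 and -0.0476 millionths and its DMHF rats at 6.81, 7.59, 6.63, 4.48 and 5.65. The groups did not overlap, with each of the 5 DMHF rats above the highest control, as was the case for 0.549% of all genes, and it was the only such gene of the 59. The reverse order, all DMHF rats below all controls, was found for 0.345% of all genes and for 0 of the 59. Gpx6 differed by 6.23 millionths (SE 1.09, 95% interval 3.76 to 8.7) or 3.51 within-group SD, with an unadjusted p of 0.000304 and an adjusted p of 0.698 by limma and an exact permutation p of 0.00794. It ranked 5 among 14217 genes by p. The probe set is dim, with a mean of 5.99 below the array median, and no second probe set reads the gene. With every array shifted to a common median the difference was 6.19 with an unadjusted p of 0.0743, and after quantile normalization it was 17.2 with an unadjusted p of 0.769 (adjusted p = 0.980 by limma) and groups that overlapped.

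Genes of olfactory sensory neurons were set beside Gpx6 because it was first described in olfactory mucosa. Which cell type expresses Gpx6 was not measured, so the list does not mark its source. Of 7 listed genes 6 were measured, 5 had a positive difference, and 0 passed the test. Omp, which marks mature olfactory sensory neurons, differed by 2.61 millionths (SE 3.79), and Gnal, their G protein subunit, which striatal neurons also express, by 2.92 (SE 1.84). Gng13, the only negative gene of the list, differed by -0.606 (SE 0.439) or -0.95 SD, where Gnal differed by 0.96 SD. The mean z-score of the list ran from -1.08 to 0.26 over control rats and from 0.09 to 0.37 over DMHF rats, so that the groups overlapped. The lowest rat of the list, control replicate 1, was also the lowest for Gpx6. The part of such cells in the Gpx6 result was not tested.

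In Gpx3 and the other peroxidases the groups overlapped. Gpx3, the secreted peroxidase of plasma, had the largest spread of the 59 genes (26.6 millionths over the 10 rats). Its control rats stood at 19, 17.8, -30.5, 24.8 and -31 and its DMHF rats at 48.5, 31.8, 10, 35.6 and -0.966. Control replicates 3 and 5 lay far below the other 3 controls, and 3 DMHF rats lay above all controls. The difference of 25 millionths (SE 14.7, 1.02 SD) had an adjusted p of 0.95 by limma. Gpx1, the cytosolic form found in most cells, stood at 0.082, -0.178, 0.162, 0.592 and -0.658 in control rats and 0.302, 1.02, -0.198, 2.21 and -0.408 in DMHF rats, and DMHF replicate 4 was the highest. It differed by 0.586 (SE 0.537), and by 0.179 without that rat. Gpx4, which reduces lipid peroxides in membranes and guards against ferroptosis, stood at -0.736, -0.466, -0.976, 0.354 and 1.82 in control and 0.284, -1.11, -0.836, 0.344 and -0.526 in DMHF rats. Control replicate 5 was the highest rat, and the difference was -0.368 (SE 0.597, -0.397 SD). A dimmer probe set of Gpx4 had the other sign, 0.248 millionths (unadjusted p = 0.642 by limma). Gpx2, a gut peroxidase, and Gpx7 and Gpx8, which act in the endoplasmic reticulum, differed by -0.228, -0.114 and -0.541 millionths, each by less than 0.4 SD.

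**Figure D2:**
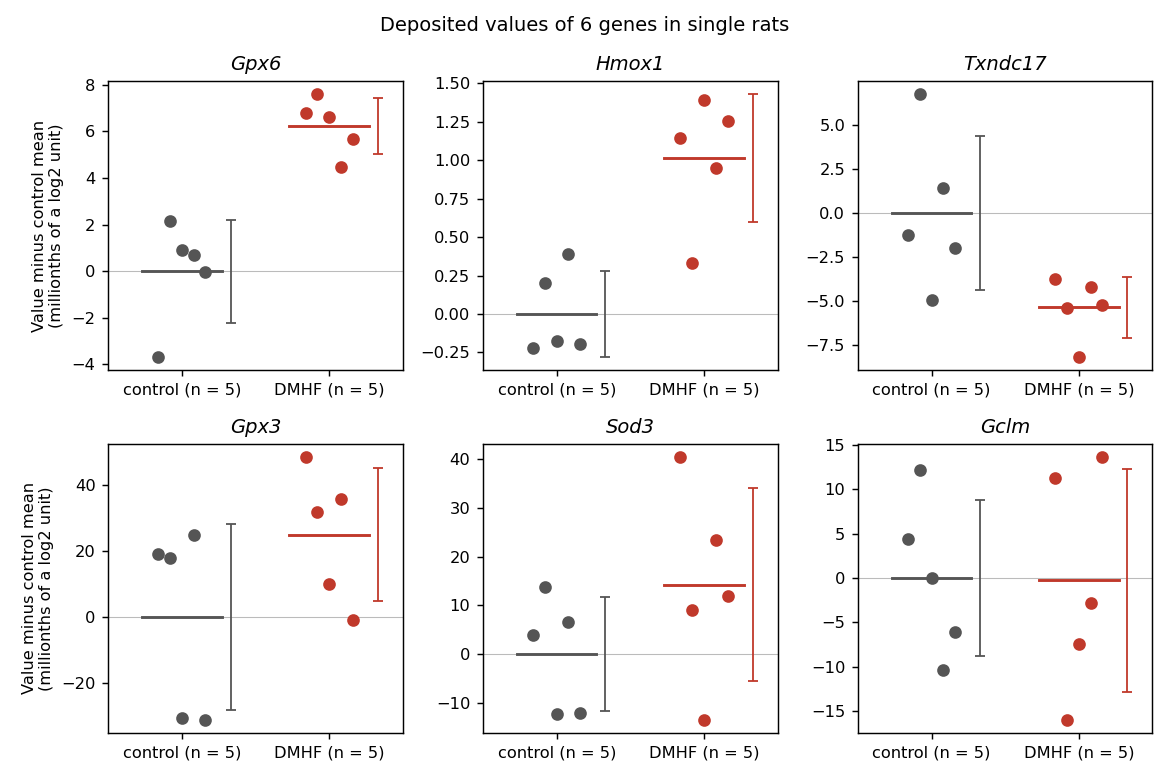
Value of each rat minus the control mean (y axes, millionths of a log2 unit, each with its own scale) for the 3 genes with the smallest p (top) and the 3 with the largest spread (bottom) in control (grey) and DMHF (red) rats; lines are means and bars SDs (n = 5). The groups do not overlap for Gpx6, and they overlap by 1 rat for Hmox1.

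Peroxiredoxins and Srxn1, which restores them after overoxidation, comprised steady and more variable genes. Prdx3, the mitochondrial form, had an SD of 0.0495 millionths over the 10 rats, Prdx5 one of 0.0688 and Srxn1 one of 0.0784. Prdx2 (0.524), Prdx6 (0.981) and Prdx4 (1.25) varied more, the last of them close to the median of the set. Of the 6 genes 5 had a positive difference, none above 0.68 SD, and 0 had an unadjusted p under 0.05. Prdx2, abundant in neurons and red blood cells, stood at -0.108, -0.018, 0.202, 0.032 and -0.108 in control rats and 1.13, 0.012, -0.438, 0.532 and -0.818 in DMHF rats. The DMHF rats were spread on both sides of the controls, 2 above and 2 below all of them, with an SD of 0.773 against 0.128. The difference of the means was 0.084 (SE 0.395, 95% interval -0.813 to 0.981). A difference in spread was not tested. Prdx6, the form with a single active cysteine and a phospholipase activity, stood at 0.67, 0.87, -1.62, 0.6 and -0.52 in control and 1.49, -0.24, -1.14, 0.85 and 0.18 in DMHF rats. Its difference was 0.228 (SE 0.657), with 1 DMHF rat above all controls and the others among them. Srxn1 stood at -0.0818, 0.0482, 0.0772, -0.109 and 0.0652 in control and -0.118, 0.0522, 0.0432, -0.0828 and 0.0022 in DMHF rats, a difference of -0.0206 (SE 0.218). Its other 2 probe sets were negative as well, at -0.434 and -0.329 millionths (unadjusted p = 0.296 and 0.674 by limma). Prdx4, secreted into the endoplasmic reticulum, differed by 0.0624, Prdx3 by 0.0332 and Prdx5 by 0.018 millionths.

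Thioredoxins donate electrons to peroxiredoxins and are themselves reduced by NADPH-dependent thioredoxin reductases. Txn1, the cytosolic thioredoxin, stood at 0.134, 0.094, 0.024, -0.056 and -0.196 in control rats and 0.194, 0.014, -0.226, 0.424 and 0.224 in DMHF rats. 3 DMHF rats lay above all controls and 1 below, and the difference was 0.126 millionths (SE 0.243, 0.642 SD), or 0.0515 without DMHF replicate 4, 0.077 without control replicate 5 and 0.214 without DMHF replicate 3. Txn2, its mitochondrial counterpart, was named after its values were seen, as the fourth gene with an exact permutation p under 0.05. Its control rats stood at -0.0742, -0.219, 0.218, -0.0612 and 0.137 and its DMHF rats at -0.185, -0.146, -0.142, -0.413 and -0.33. All DMHF rats were below the control mean, and replicates 4 and 5 below all controls. It differed by -0.243 (SE 0.231, -1.61 SD, exact p = 0.0397). The limma p was 0.321, and its moderated SE was larger than both group SDs (0.176 and 0.122). Txnrd1, the cytosolic reductase, stood at -0.785, -0.144, -0.697, 0.705 and 0.92 in control and 0.22, 0.517, -0.306, 0.782 and 0.217 in DMHF rats, with all DMHF rats inside the control range. The difference was 0.286 (SE 0.432, 0.09 to 0.516 with single arrays left out), and a dimmer probe set of the gene differed by 2.89 (unadjusted p = 0.125 by limma). Txnrd2 in mitochondria and Txnrd3, enriched in testis, differed by -0.625 and 0.281. Txnip, which binds and blocks thioredoxin and responds to glucose, had one of the wider spreads. The control values were -7.88, 7.41, 2.64, -1.98 and -0.186 and the DMHF values 2.72, 15.5, 0.723, 14.3 and -9.54. DMHF replicates 2 and 4 lay above all controls and DMHF replicate 5 below them, and the difference was 4.75 (SE 5.04, adjusted p = 1 by limma). It was 2.06 without DMHF replicate 2, 2.36 without DMHF replicate 4, 2.78 without control replicate 1 and 8.33 without DMHF replicate 5.

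Among the 10 proteins with a thioredoxin fold, Txndc17 had the smallest p of the genes that were lower in DMHF rats. Txndc17, also called TRP14, is a cytosolic oxidoreductase reduced by Txnrd1. Its control rats stood at -1.23, 6.73, -4.94, 1.39 and -1.95 and its DMHF rats at -3.72, -5.38, -8.16, -4.18 and -5.2. The DMHF rats were close together (SD 1.73 against 4.38) and 3 of them lay below all controls. The difference was -5.33 millionths (SE 2.02, 95% interval -9.9 to -0.756) or -1.6 SD, with an unadjusted p of 0.0272 and an adjusted p of 0.868 by limma and an exact permutation p of 0.0238. It ranged from -6.56 to -3.65 with single arrays left out, and control replicate 2 was the highest rat. Txndc11, which acts in the endoplasmic reticulum, stood at -2.86, 1.32, 0.0086, -1.06 and 2.6 in control and -4.61, -3.46, -0.477, 0.62 and -2.27 in DMHF rats. Its groups overlapped in 3 DMHF rats, and it differed by -2.04 (SE 1.29, adjusted p = 0.956 by limma). The other genes of this branch differed by less than 0.85 SD in size. They were Txndc12 (-0.992), Txndc5 (0.124), Txndc15 (0.016), Txndc16 (1.64) and Txndc9 (-0.525), and the thioredoxin-like Txnl1 (0.366), Txnl4a (0.336) and Txnl4b (0.184 millionths). Txnl4a and Txnl4b act in the spliceosome. The brightest probe set of Txnl1 was positive, while its 3 others stood at 0.0178, -0.939 and -1.19.

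Glutathione S-transferases were the largest branch with 21 genes, 13 of them with a positive difference and 0 with an unadjusted p under 0.05. All 21 differed by less than 1 SD. In the pi class both genes were positive. Gstp1, a major transferase of brain glia, stood at -12.5, 2.9, -1.98, 5.65 and 5.94 in control rats and 4.41, -0.754, 10.2, 22.9 and 1.59 in DMHF rats. DMHF replicates 3 and 4 lay above all controls, control replicate 1 was the lowest rat, and the other rats were mixed. The difference of 7.67 millionths (SE 5.18, 0.891 SD) had an adjusted p of 0.969 by limma, and was 3.86 without DMHF replicate 4 and 4.54 without control replicate 1. Gstp3 is a close copy of Gstp1, and whether the probe sets of the pair read each other's transcripts was not tested. It stood at -0.26, 3.49, 9.27, -8.2 and -4.29 in control and -1.58, 7.15, 8.09, 14.9 and -0.0416 in DMHF rats, again with DMHF replicate 4 highest, and differed by 5.71 (SE 4.05), by 3.41 without that rat and by 3.65 without control replicate 4.

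In the mu class, which holds several close copies on chromosome 2, 5 of 7 genes were positive. Gstm4 stood at -3.31, 2.33, -3.94, 1.28 and 3.63 in control rats and 2.35, 1.22, 3.55, 2.97 and -0.493 in DMHF rats. All DMHF rats lay inside the control range, and the difference was 1.92 (SE 1.62), or 0.934 without control replicate 3 and 1.09 without control replicate 1. Gstm1 (0.633), a main mu enzyme of astrocytes, Gstm3 (0.977), Gstm6l (0.118) and Gstm7 (0.0968) were positive, and Gstm2 (-2.12) and Gstm5 (-1.57 millionths) negative. The alpha class had 4 genes. Gsta4, which conjugates the lipid peroxidation product 4-hydroxynonenal, had values of 9.07, 6.13, -10.5, 2.88 and -7.61 in control rats and 5.16, -7.02, -7.91, 2.95 and 9.85 in DMHF rats. The rats were spread alike in both groups (SD 8.59 and 7.79), and the difference was 0.606 (SE 4.94). Gsta3l1 stood at 0.311, -2.21, 3.92, -1.34 and -0.677 in control and 0.729, -4.03, 0.0702, -4.52 and -3.74 in DMHF rats. 3 DMHF rats lay below all controls, and it differed by -2.3 (SE 1.48, -0.944 SD), or -1.32 without control replicate 3. Gsta1 (0.094) and Gsta3 (1.11 millionths) were positive.

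The remaining transferases mixed signs. The theta class stood at 0.196 (Gstt1), -0.719 (Gstt2) and -0.863 (Gstt3). The omega class, which reduces dehydroascorbate, stood at 0.13 (Gsto1) and -1.2 (Gsto2). Gstk1 in mitochondria and peroxisomes differed by -0.114, and Gstz1, an enzyme of tyrosine breakdown, by -0.352 millionths. Gstcd, a protein with a transferase-like domain, stood at -2.38, -1.51, -4.24, 0.0288 and 8.09 in control rats and 9.94, 4.7, 1.89, 3.89 and -0.627 in DMHF rats. DMHF replicate 1 was the highest rat and control replicate 5 the next, and the difference was 3.96 (SE 2.64, 0.905 SD), or 2.46 without the former and 5.98 without the latter.

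Of the 3 genes that set the supply of glutathione none was listed at an unadjusted p under 0.05. All 3 differences were negative, but that of Gclm ran from -3.76 to 3.65 and that of Slc7a11 from -1.06 to 0.08 with single arrays left out, with a positive sign for Gclm in 5 of 10 cases and for Slc7a11 without control replicate 1. Without control replicate 5 the Gclc difference was -0.0736. Gclc, the catalytic subunit of glutamate-cysteine ligase and thus of the rate-limiting step, hardly varied. Control rats stood at 0.0278, -0.13, -0.0632, -0.0042 and 0.17 and DMHF rats at -0.146, -0.141, -0.139, 0.0378 and -0.191. 4 DMHF rats lay below all controls while DMHF replicate 4 lay among them, and the difference was -0.116 (SE 0.221, -1.15 SD, exact permutation p = 0.103). Its group SDs (0.112 and 0.0886) were smaller than the moderated SE, and a dimmer probe set was negative as well, at -0.622 (unadjusted p = 0.647 by limma). Gclm, the modifier subunit, varied far more. It stood at 4.34, 12.1, -0.0094, -10.4 and -6.06 in control and 11.2, -16, -7.42, -2.85 and 13.6 in DMHF rats, and both groups held rats well above and well below the control mean. Its difference was -0.279 millionths (SE 6.53, 95% interval -15.1 to 14.5). Slc7a11, the cystine importer that feeds the ligase and a gene of astrocytes, stood at 2.04, 1.42, -1.16, 0.008 and -2.31 in control and -0.726, 2.08, -1.33, -1.21 and -0.962 in DMHF rats. DMHF replicate 2 lay just above the highest control and the other DMHF rats among the lower ones, with a difference of -0.43 (SE 0.995).

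Hmox1, the inducible heme oxygenase and a frequent marker of oxidative stress, had the second smallest p of the set. Its control rats stood at -0.222, 0.2, -0.175, 0.393 and -0.198 millionths and its DMHF rats at 1.15, 0.334, 1.39, 0.949 and 1.26. 4 DMHF rats lay above all controls, and DMHF replicate 2 lay below the highest control. The difference was 1.02 (SE 0.301, 95% interval 0.334 to 1.7) or 2.87 SD, with an unadjusted p of 0.00837 and an adjusted p of 0.804 by limma and an exact permutation p of 0.0159. It ranged from 0.922 to 1.19 with single arrays left out. With a common array median it was 0.97 with an unadjusted p of 0.738. A single probe set read the gene, at a mean of 7.17 just below the array median. Blvrb and Blvra, the biliverdin reductases that act after Hmox1, belong to the NRF2 target list below, in which no gene passed.

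The superoxide dismutases turn superoxide into hydrogen peroxide. Sod1, the copper and zinc enzyme of the cytosol, stood at 0.19, 0.52, -0.47, -0.08 and -0.16 in control rats and 0.45, 0.76, 0.14, 0.59 and 0.11 in DMHF rats. All DMHF rats were above the control mean and 2 above all controls, and the difference was 0.41 millionths (SE 0.292, 1.24 SD, exact permutation p = 0.0952). Sod2, the mitochondrial manganese enzyme, stood at 0.238, -0.0918, -0.238, 0.659 and -0.568 in control and 0.105, -0.709, -0.191, 0.507 and 0.295 in DMHF rats. Its group means were the closest of the 59 genes in SD units, with a difference of 0.0016 (SE 0.354, 95% interval -0.802 to 0.805). Sod3, the secreted form, varied widely, with 3.95, 13.9, -12.4, 6.54 and -12 in control rats and 40.5, 9, -13.5, 23.4 and 11.9 in DMHF rats. DMHF replicates 1 and 4 were the highest and DMHF replicate 3 the lowest of the 10. It differed by 14.3 (SE 9.8, 0.876 SD, adjusted p = 0.969 by limma), and by 7.71 without DMHF replicate 1. Cat, the peroxisomal catalase, stood at -2.59, 0.206, -0.617, -3.73 and 6.74 in control and -9.86, 0.0046, -0.403, -7.1 and 3.2 in DMHF rats, with DMHF replicates 1 and 4 lowest. Its difference was -2.83 (SE 2.9). It was -1.07 without DMHF replicate 1, -1.15 without control replicate 5, -1.77 without DMHF replicate 4 and -4.34 without DMHF replicate 5. Nqo1, a quinone reductase and a standard NRF2 target, stood at 1.2, -3.12, -0.0924, 3 and -0.99 in control and 4.81, 2.37, -1.23, -1.46 and -1.24 in DMHF rats, with DMHF replicate 1 highest and control replicate 2 lowest. It differed by 0.65 (SE 1.56, 95% interval -2.9 to 4.2).

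The rest of the pathway was taken from 6 lists, and none of their genes passed the test. Of 9 NRF2 regulators and partners 4 were positive, with the smallest p for Sqstm1, an autophagy receptor that binds KEAP1 (1.38 millionths, SE 0.531, unadjusted p = 0.0289 by limma), and Mafk, a small MAF partner (1.44, SE 0.832). Of 18 measured NRF2 target genes outside the set 7 were positive. The smallest p belonged to negative genes, the exporter Abcc1 (-1.94, SE 0.901) and the metallothionein Mt2A (-53.4, SE 29.4). Of 16 measured genes of glutathione synthesis, breakdown and transport 9 were positive, with Chac2, which degrades glutathione, at -7.21 (SE 5.53) and Ggt5 at 1.66 (SE 1.46). Among 11 genes of glutathione reduction and glutaredoxins 4 were positive. Gsr, the glutathione reductase, stood at -0.781 (SE 0.450) and Idh1, a source of NADPH, at 0.991 (SE 0.723). The 6 membrane-bound transferases had 4 positive genes, with Mgst2 at 2.84 (SE 2.30) and Ptges at 0.906 (SE 0.888). The 17 methionine sulfoxide reductases, sestrins and other selenoproteins had 8 positive genes, with Msra at -4.60 (SE 2.36) and Ccs, the copper chaperone of Sod1, at 4.03 (SE 3.23). Over these lists the median moderated t lay between -0.13 and 0.40, against 0.07 over all genes.

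The heat map of z-scores shows how single rats stood across the set. DMHF replicate 1 was the highest rat for 11 of the 59 genes (18.6%, against 17.0% of all genes) and DMHF replicate 3 the lowest for 11 (18.6% against 10.6%). The mean z-score over the 59 genes was 0.44 in DMHF replicate 1 and 0.38 in DMHF replicate 4, and -0.42 in DMHF replicate 3. The control rats lay between -0.24 and 0.09. Over all genes the same means were 0.15, 0.08 and -0.10 in those DMHF rats and -0.09 to 0.07 in control rats. The median pairwise correlation of the 59 genes after centring each group was 0.0593, against 0.00687 over all genes, given as a description over the same 10 arrays.

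**Figure D3:**
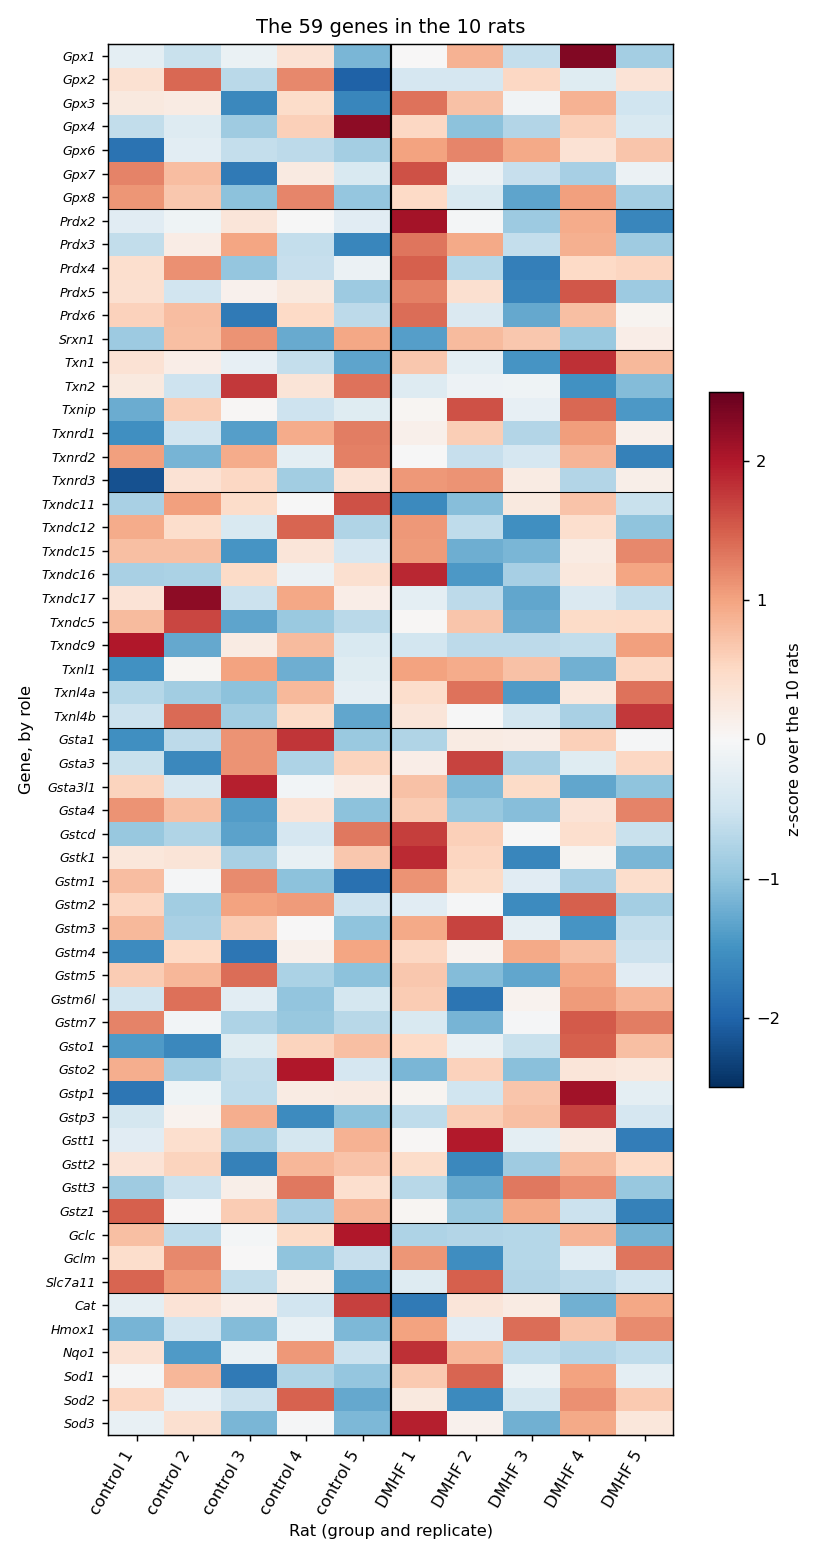
Z-scores over the 10 rats (colour, cut at -2.5 and 2.5) of the 59 genes (rows, grouped by role) in 5 control and 5 DMHF rats (columns). DMHF replicate 3 is the lowest rat for 11 genes, among them Prdx4, Prdx5 and Txn1, and the Gpx6 and Hmox1 rows are higher on the DMHF side.

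None of the 15 pairs among the 6 most variable genes had a correlation that passed after adjustment. Over the 10 rats Gpx3 and Sod3, both secreted, correlated at r = 0.802 (permutation p = 0.00522, adjusted over the 15 pairs 0.0783) and rho = 0.697 (permutation p = 0.0309, adjusted 0.243). Without the 2 rats farthest from the median of Gpx3 r was 0.705, and within groups it was 0.748. Among the other 14 pairs the next r was 0.681 for Gclm and Gsta4 (permutation p = 0.0359, adjusted 0.203). Markers of neighbouring tissue differed between rats as well. In the choroid plexus list 5 of 6 measured genes were positive, with a mean z-score of -1.48 to 0.58 in control and -0.61 to 1.29 in DMHF rats. In the ependyma list all 5 measured genes were positive, with -1.31 to 0.51 in control and -0.17 to 1.2 in DMHF rats. The median difference of the ependyma list was 1.2 SD and that of the choroid plexus list 0.77 SD, against 0.13 SD over the 59 genes. Foxj1 and Tmem212, genes of ciliated cells, differed by 1.38 SD each (unadjusted p = 0.0477 and 0.0478 by limma), and Folr1 of the choroid plexus by 1.43 SD (unadjusted p = 0.0417 by limma). Kcnj13, the only negative gene of the choroid plexus list, differed by -1.2 SD (unadjusted p = 0.0789 by limma). Control replicates 3 and 5, the lowest controls for Gpx3 and Sod3, were also the lowest controls of both lists. DMHF replicate 4 was the highest rat of both lists, but DMHF replicate 1 was the highest for Gpx3 and Sod3. DMHF replicate 3, the lowest rat for Sod3, was the lowest of neither list. In the meninges and fibroblast list control replicates 3 and 5 were the lowest controls too (-0.95 and -0.65), and DMHF replicate 3 was the lowest rat (-1.38). The part of these tissues in the Gpx3 and Sod3 values was not tested. In the red blood cell list, whose cells hold much Prdx2 and Cat, 4 of 5 measured genes were positive, with a mean z-score of -0.80 to 0.54 in control and -0.79 to 0.73 in DMHF rats. Its part was not tested either. Of the other marker lists, astrocytes had 4 of 7 genes positive, neurons 4 of 7, oligodendrocytes 2 of 6, microglia 3 of 7, endothelium 1 of 6, meninges and fibroblasts 2 of 7, and liver 5 of 7. Gfap of astrocytes differed by 1.56 SD (unadjusted p = 0.0297 by limma) and Alb of liver by -1.39 SD (unadjusted p = 0.0473 by limma), and no other gene of these lists had an unadjusted p under 0.05. Other genes of both lists went the other way. In astrocytes 3 of 7 genes were negative, with S100b at -1.47 SD and Slc1a2 at -0.848 SD. In liver 5 of 7 genes were positive, with Tat at 0.989 SD. No gene of a marker list passed after adjustment.

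limma estimates a gene's SE partly from all other probe sets, which weighs most on genes with little spread. The within-group SD lay below the typical SD that limma estimated from all probe sets (1.09 millionths) for 27 of the 59 genes. The moderated SE was larger than the SD of both groups for 7 genes. Prdx3 was the extreme case, with an SE of 0.215 millionths against SDs of 0.0486 and 0.0497. The exact permutation test, which borrows nothing, gave a p under 0.05 for Gpx6, Hmox1, Txndc17 and Txn2.

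**Figure D4:**
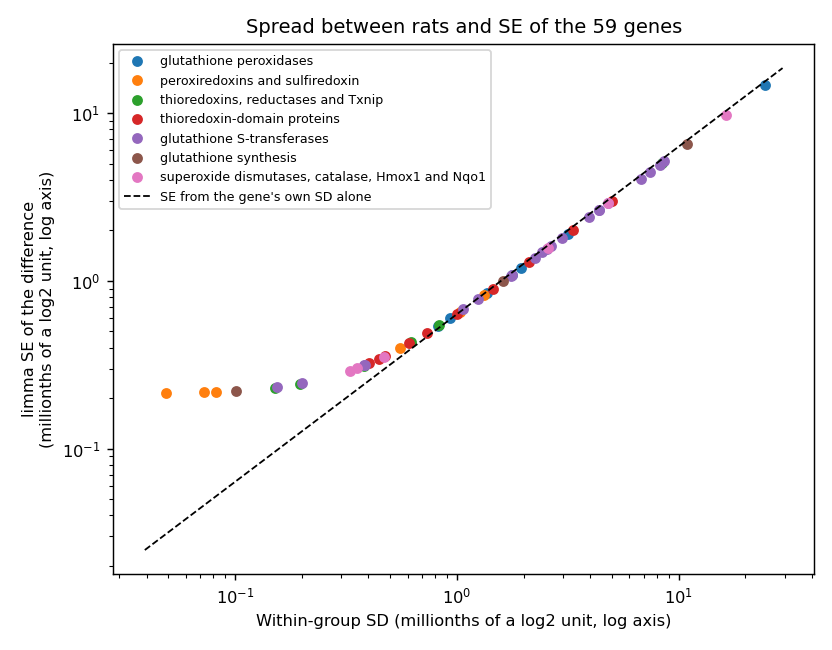
Within-group SD (x axis, millionths, log scale) and limma SE of the difference (y axis, millionths, log scale) of the 59 genes, coloured by role; the dashed line is the SE that a gene's own SD gives with 5 rats per group. Prdx3 lies furthest to the left and above the line, with an SE of 0.215.

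NRF2 binds antioxidant response elements, and the stretch upstream of each gene was searched for their core because NRF2 is known to drive many genes of the set. RefSeq promoters of assembly GRCr8, 300 bases from 250 before the gene's start to 50 after it, were found for 51 of the 59 genes. The core TGACNNNGC, searched on both strands (GCNNNGTCA on the other), lay in 17 of these genes (33.3%), and in 13.1% of all 27457 genes with such a window and 12.1% of all promoters. The 17 genes had 11 positive differences and a median moderated t of 0.0829, and the 34 genes without the core had 19 and 0.139. The core was not among the letters of the windows of Nqo1, Gclc, Srxn1 and Slc7a11, which are well-known NRF2 targets, or of Gpx6, and no window was matched for Hmox1. The search covered only these windows and this spelling of the core. Elements farther from the start or spelled otherwise were not counted, so the absence is a limit of the search. A match of letters is a description and not a binding site. A gene was counted when any of its windows held the core, and Txnrd1 and Gsta3 each have another window without it. Only stretches that hold the core are shown. Given 5' to 3' on the gene's strand, with the core in capitals, are the stretches of the ligase subunit, the cytosolic reductase, 3 conjugating or peroxide-reducing enzymes and Txndc17, which had the smallest p among the genes with a core.
Gclm, chr2:213031953-213031981, plus strand, core at -172 from the start: tgcggtttctGCTTAGTCAttgtcttcca
Txnrd1, chr7:22755964-22755992, minus strand, core at -78: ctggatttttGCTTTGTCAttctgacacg
Gstp1, chr1:210769748-210769776, minus strand, core at -61: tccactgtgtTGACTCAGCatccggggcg
Gsta3, chr9:31154962-31154990, plus strand, core at -17: aactcaggcaTGACTTCGCattttttcct
Gpx2, chr6:101230028-101230056, minus strand, core at -13: acctggtttcGCTAAGTCAttctgggaat
Txndc17, chr10:57331295-57331323, plus strand, core at -7: cccggaaactTGACCACGCcttacttggg

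Of these 6 genes Gclm, Gpx2 and Txndc17 had negative differences (-0.279, -0.228 and -5.33 millionths) and Txnrd1, Gstp1 and Gsta3 positive ones (0.286, 7.67 and 1.11).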

How the data were processed

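The authors deposited 1 table of processed log2 expression values with 31099 probe sets and 10 arrays. They worked in R 2.7.2, per the submitters' processing notes. No source used here states the background correction, normalization, summary method or log base. Sample titles gave each rat's group and number. Affymetrix control probe sets (57) were not tested. Of 31042 probe sets 20826 named 1 gene (GEO's platform annotation), 436 several and 9780 none. RefSeq's GRCr8 gene table held the identifiers of 20758, among them all 59 genes of the set.

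Every probe set was fitted in R 4.3.3 by lmFit and eBayes of limma 3.58.1 (no covariate, prior degrees of freedom 0.841) with Benjamini-Hochberg adjustment over all and a threshold of 0.05, and the fit was tested on simulated data. Values are given rat by rat for 27 genes: the 12 with the smallest p, the 6 with the largest SD and 18 fixed by name, of which Prdx1 was not measured alone; Txn2 was added. Of each pathway list the 2 genes with the smallest p are named. The members and lists were chosen with earlier results of these data known. Alternatives are in the closing section. The number of arrays limits the precision.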

Additional observations from a re-analysis of the deposited data

Results flagged for a closer look

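In 118 groups of 5 rats (59 genes, control and DMHF), 6 single values stood apart from the other 4 by more than 0.71 of the group's range (Dixon's 95% limit), where chance alone flags about 1 group in 20. Txndc9 had 0.755 millionths in DMHF replicate 5 against -0.907 to -0.706 in the other DMHF rats. Slc7a11 had 2.08 in DMHF replicate 2 against -1.33 to -0.726. Gstt2 had -4.47 in control replicate 3 against 0.458 to 1.63. Txnl1 had -0.37 in DMHF replicate 4 against 0.42 to 0.65, and Gclc 0.0378 in the same rat against -0.191 to -0.139. Gpx7 had 4.69 in DMHF replicate 1 against -2.5 to -0.48. These values fell in 5 different rats, and no rat held more than 2.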

How the results depend on the processing

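Under all 19 alternatives 0 of the 59 genes passed the test. All probe sets together gave 13 calls after quantile normalization, which left 10076 probe sets and 14 of the 59 genes to test, and 0 to 1 with single arrays left out (1 without DMHF replicate 2). The count of the set at an unadjusted p under 0.05 by limma was 3 in the fit of all arrays, beside 4.8% of all genes. It was 5 with the replicate block (6.6% of all genes). Among the brighter 15521 probe sets, with 46 of the 59 genes but without Gpx6 and Hmox1, it was 1 (3.88% of the genes left). It was 0 after quantile normalization (5.37% of the genes left). That setting dropped probe sets whose values became the same on all arrays. Hmox1 and Txndc17 were among them, so its count of 0 says nothing about these genes. The count was also 0 with a common array median (1.36% of all genes). Array medians differ by 15.2 millionths, more than the spread of most genes, so that setting adds array offsets larger than the spread of most genes. Positive differences numbered 8 of the 14 genes left after quantile normalization (57.1%, against 59% of all genes left). Among them Gstm6l differed by 3.36e-10 millionths, a rounding remainder, as was the negative Txnrd2 (-8.72e-10). The median moderated t over all genes left was 8.6e-10. Both shares thus rest in part on signs of such remainders and are not read as a result. The count whose groups do not overlap was 0 with quantile normalization, a common median or the brighter probe sets (which leave out Gpx6), and 1 to 2 with single arrays left out. It was 2 without control replicate 2, 3 or 4 or DMHF replicate 2 or 4. With 1 rat fewer, groups separate more readily by chance. The share over all genes was not computed for these settings, so the rise is not read as a result.

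The sign held for 34 of the 59 genes whichever array was left out. Among the genes given rat by rat it changed for Gclm (-3.76 to 3.65), Gpx4 (-0.612 to 0.088), Gsta4 (-2.01 to 2.87), Nqo1 (-0.391 to 1.4), Prdx2 (-0.178 to 0.309), Prdx6 (-0.177 to 0.57), Slc7a11 (-1.06 to 0.08), Sod2 (-0.14 to 0.179) and Srxn1 (-0.0478 to 0.0037 millionths). Sod2 was -0.0446 with a common median and -0.0574 with array weights, where Gsta4 was -0.806. The causes were not tested. Same-numbered rats deviated together at 0.0288 to 0.281 over all probe sets, with 3 of 5 correlations under 0.1. Of 10 rats 6 correlated best with their own number. The values expected by chance were not computed, so these figures cannot decide whether same-numbered rats belong together. The labels state no pairing, so the main fit used none. The replicate block added Gpx3 (unadjusted p = 0.00451 by limma, against 0.125) and Gsta3l1 (0.0272 against 0.155) to Gpx6 (0.00219), Hmox1 (0.0429) and Txndc17 (0.0233); the smallest adjusted p in the set was then 0.489.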
